A study of Mus musculus with 60 samples.

Results

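The genes described here are 42 genes of the extracellular matrix: fibrillar, microfibrillar and basement membrane collagens, laminins and their partners, interstitial glycoproteins, small leucine-rich proteoglycans, 5 matrix genes of neural tissue and 2 genes of matrix turnover. They were chosen by name, and all 42 were found among the 24378 features of the deposited table. Their RNA was measured by bulk sequencing of dissected mouse embryonic brain in 60 libraries: 5 regions (ventral midbrain, dorsal midbrain, ventral forebrain, ventral hindbrain and alar plate) at 4 stages a day apart, E11.5 to E14.5, with 3 libraries for each of the 20 groups. Every embryo, in every group, carried the TH-GFP transgene, a green fluorescent reporter of dopaminergic tissue that guided the dissection, and no group lacked it. The ventral midbrain pieces comprised floor plate and basal plate. Whole pieces of tissue were used without cell sorting, and the labels give neither the number of embryos behind a library nor whether replicates are different animals. The p-values below therefore measure only the spread between these libraries, which may be technical. Levels are given in RPKM, in which reads are divided by transcript length and by the library total, so that levels of different genes can be set side by side.

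The matrix of the embryonic brain has several sources. The meninges, the connective tissue sheath over the brain, are mesenchyme that secretes fibrillar collagens and small proteoglycans, and beneath them lies the pial basement membrane of laminin, collagen IV, nidogen and perlecan. Vessels have a basement membrane of their own. Neural cells secrete a different matrix, rich in chondroitin sulphate proteoglycans of the lectican family and in reelin. In bulk samples, a change in the number of cells of a type and a change in RNA per cell cannot be told apart.

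Sequences upstream of the collagen genes are shown because 2 of the genes, Col4a1 and Col4a2, lie head to head and encode the partner chains of collagen IV, and because Col1a2 encodes a chain of collagen I, whose partner chain Col1a1 spread widely between libraries. RefSeq windows on GRCm38.p6, from 250 bases before to 50 bases after each transcript start, were matched for 30 of the 42 members. Read 5′ to 3′ along each gene's own strand, with the pentamer CCAAT or its reverse complement ATTGG in capitals, the windows are Col1a2 (chr6:4505368-4505667, plus strand), Col4a1 (chr8:11312777-11313076, minus strand) and Col4a2 (chr8:11312555-11312854, plus strand):
Col1a2: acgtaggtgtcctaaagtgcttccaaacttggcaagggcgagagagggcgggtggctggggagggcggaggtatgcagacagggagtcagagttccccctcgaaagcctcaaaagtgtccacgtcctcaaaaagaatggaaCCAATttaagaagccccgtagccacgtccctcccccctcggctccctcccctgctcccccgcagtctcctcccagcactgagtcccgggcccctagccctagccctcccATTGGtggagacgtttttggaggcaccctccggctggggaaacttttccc
Col4a1: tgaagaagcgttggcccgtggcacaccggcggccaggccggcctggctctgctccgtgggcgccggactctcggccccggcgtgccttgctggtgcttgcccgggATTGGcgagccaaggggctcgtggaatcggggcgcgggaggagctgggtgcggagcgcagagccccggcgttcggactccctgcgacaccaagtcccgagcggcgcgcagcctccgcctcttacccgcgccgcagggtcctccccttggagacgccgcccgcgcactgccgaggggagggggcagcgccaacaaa
Col4a2: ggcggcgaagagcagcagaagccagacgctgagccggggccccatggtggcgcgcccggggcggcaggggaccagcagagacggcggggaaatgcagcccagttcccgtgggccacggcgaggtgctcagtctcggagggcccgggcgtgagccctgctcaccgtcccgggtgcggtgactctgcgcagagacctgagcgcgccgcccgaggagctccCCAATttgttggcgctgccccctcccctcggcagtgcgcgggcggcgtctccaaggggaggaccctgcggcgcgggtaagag
The Col4a1 and Col4a2 windows overlap by 78 bases, from position 11312777 to position 11312854 of chromosome 8, and the annotated start of Col4a1 lies 21 bases downstream, in the direction of Col4a2 transcription, of the annotated start of Col4a2. CCAAT on either strand was found in 12 of the 35 windows of members (34.3%) and in 37.4% of all 32851 windows of the same length. A match is a description of letters only. The Col4a1 level was 1.08 to 1.94 times the Col4a2 level over the 60 libraries, with a median ratio of 1.41. The ratio of Col1a2 to Col1a1, the partner chains of collagen I, was 0.644 to 35.7 over the 60 libraries, with a median of 2.36. In the 24 libraries with at least 5 RPKM of Col1a1 it was 0.644 to 2.30. In the ventral midbrain, where most libraries were low, the medians were 1.435 RPKM of Col1a2 and 0.174 RPKM of Col1a1.

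Library totals, in units of 1000000 reads, lay between 0.979 and 23.6. The E11.5 libraries (1.58 to 6.43) and E14.5 libraries (0.979 to 6.13) had fewer reads than most of those of E12.5 (8.67 to 13.1) and those of E13.5 (4.97 to 23.6). All E12.5 libraries carried 1 run name and all E13.5 libraries another. The E11.5 dorsal midbrain libraries had a run name apart from the rest of their stage, and it was the run name of the E14.5 ventral forebrain, ventral hindbrain and alar plate libraries. Both midbrain regions at E14.5 had a run name of their own. For E13.5 against E12.5, stage and run cannot be told apart, whereas E11.5 and E14.5 shared 1 run, though for different regions. Region marker genes went with the region labels in the averages over stages: 5 of 5 ventral midbrain markers were called higher in ventral midbrain, 3 of 3 dorsal midbrain markers in dorsal midbrain, 2 of 3 ventral forebrain markers in ventral forebrain and 3 of 3 ventral hindbrain markers in ventral hindbrain. Some were also called higher elsewhere, on the log2 scale by limma: all 3 dorsal midbrain markers in the alar plate (Tfap2b by 3.13, Pax3 by 1.28 and Pax7 by 1.19), the ventral midbrain markers Lmx1a (2.12) and Nr4a2 (1.24) in the ventral forebrain, and the ventral forebrain marker Six3 by 1.73 in the alar plate, against 1.32 in the ventral forebrain. Moreover, 13 of the 60 libraries matched another region of their stage better than their own in genes outside the 42. These were all 3 ventral forebrain and all 3 alar plate libraries at E11.5, 1 ventral midbrain and 1 ventral hindbrain library at E11.5, 1 ventral forebrain and 2 alar plate libraries at E12.5, and 1 alar plate library each at E13.5 and E14.5. The counts of members called within each stage are given again without these libraries.

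The levels of the members spanned a wide range. Agrn, which encodes the heparan sulphate proteoglycan agrin, had the highest median over the 60 libraries, 117.2 RPKM, and ranged only from 50.4 to 167.1 RPKM. Sparc, a collagen-binding glycoprotein, followed with a median of 95.5 RPKM (42.7 to 287.4 RPKM), and Ncan, the lectican neurocan, with 82.8 RPKM (6.53 to 116.9 RPKM). Next came Col4a1, Vtn and Col4a2, with medians of 30.9, 25.2 and 22.2 RPKM. At the other end, Dpt, which encodes dermatopontin, was listed at 0 in 52 of 60 libraries and never exceeded 0.428 RPKM, so it was not tested. A median below 1 RPKM was also found for Col1a1, Col6a1, Col6a3, Lama2, Lum, Ogn, Spp1, Thbs2 and Tnr. The 42 members together took 0.205% to 1.52% of the reads of a library, with a median of 0.377%.

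**Figure D1:**
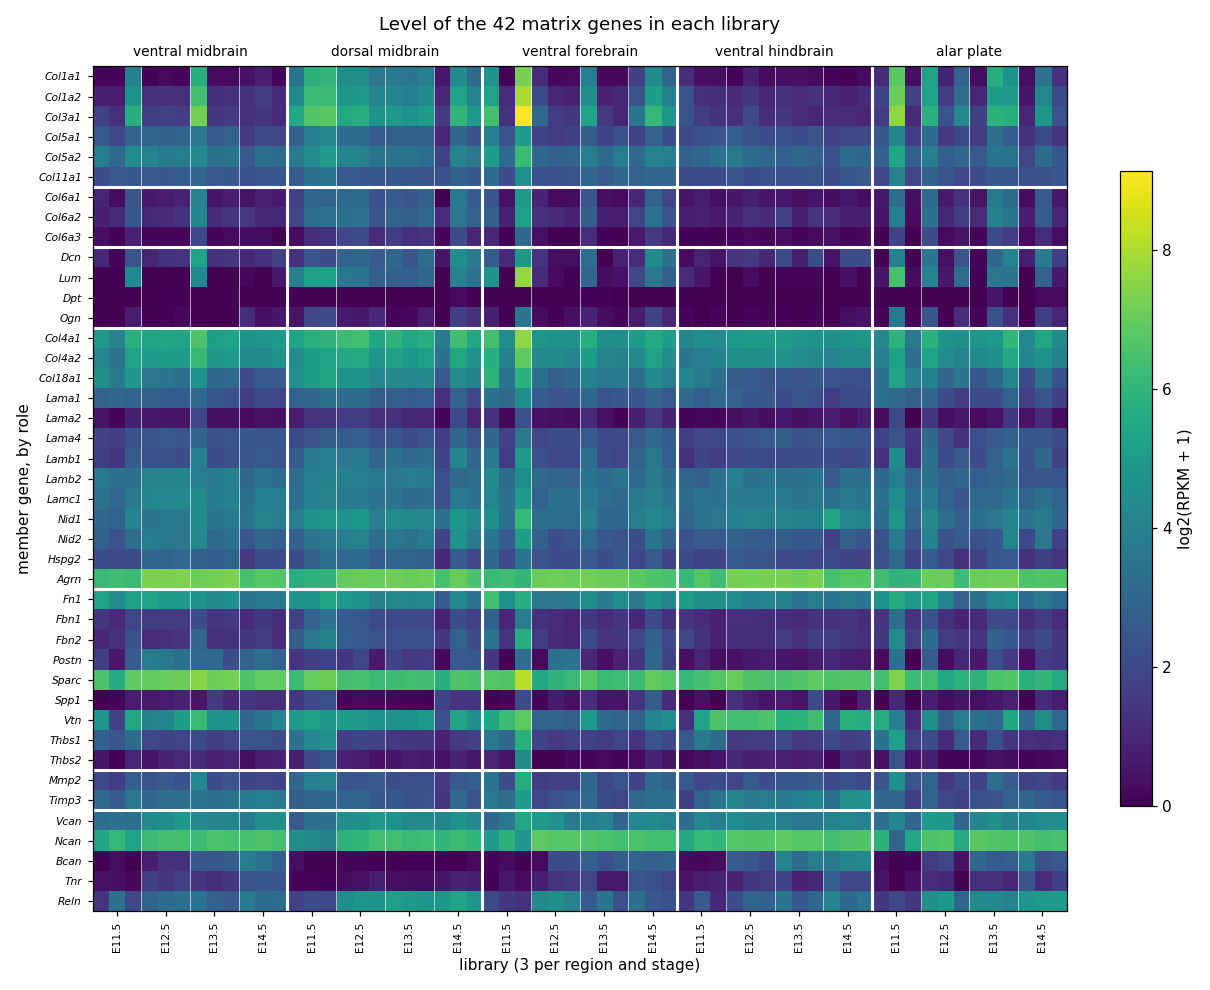
Level of each of the 42 members as log2(RPKM + 1) (colour) in each of the 60 libraries (columns, 3 per region and stage), with genes in rows by role. Agrn, Sparc and Ncan are bright throughout, whereas Col1a1, Col1a2, Col3a1 and Lum are bright in single libraries and in most dorsal midbrain columns.

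The fibrillar collagens of type I and type III, which form the tensile fibrils of connective tissue, were high in the dorsal midbrain and low in the ventral hindbrain, and in the other regions they often differed more than 10-fold between libraries of 1 group. Col1a1 (chromosome 11, 94936224 to 94953042, plus strand, GENCODE on GRCm38) had 10.7, 58.2 and 64.7 RPKM in the dorsal midbrain at E11.5, 21.7, 22.6 and 11.2 RPKM at E12.5, 12.2, 11.02 and 14.46 RPKM at E13.5, and 0.545, 19.6 and 7.94 RPKM at E14.5. In 11 of the 12 dorsal midbrain libraries it thus exceeded 5 RPKM, and the exception was replicate 2 of E14.5. In the ventral hindbrain the 12 values lay between 0.0469 and 1.31 RPKM, with a median of 0.249 RPKM, below the other 11 dorsal midbrain values. In the ventral midbrain 10 of 12 libraries were below 1 RPKM, but replicate 6 of E11.5 had 14.7 RPKM and replicate 4 of E13.5 had 53.1 RPKM, against 0.237 and 0.163 RPKM in the other E13.5 libraries. The ventral forebrain at E11.5 had 24.9, 0.0352 and 151.5 RPKM, which span all the values seen anywhere in the series. The alar plate had 1.13, 112.0 and 0.251 RPKM at E11.5, 38.8, 0.890 and 6.38 RPKM at E12.5, 0.230, 53.2 and 24.1 RPKM at E13.5, and 0.310, 10.2 and 1.43 RPKM at E14.5. In 9 of the 20 groups the highest Col1a1 library was at least 10 times the lowest, with the highest at 1 RPKM or more.

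Col1a2, the partner chain of collagen I, and Col3a1, the chain of collagen III, followed the same libraries. The library highest for Col1a1 in its group was also the highest for Col1a2 in 19 of 20 groups and for Col3a1 in 19 of 20. Col3a1 reached 564.5 RPKM in replicate 6 of the ventral forebrain at E11.5, where Col1a2 had 252.9 RPKM, and 144.5 RPKM in replicate 4 of the ventral midbrain at E13.5, where Col1a2 had 82.1 RPKM. The other fibrillar collagens spread less over the 60 libraries: the highest level was 32.7 times the lowest for Col5a1, 31.1 times for Col5a2 and 8.55 times for Col11a1, against 4308 times for Col1a1, 534.3 times for Col1a2 and 591.2 times for Col3a1. Col5a1 and Col5a2, whose products set the diameter of collagen I fibrils, were never below 0.984 and 2.41 RPKM, with medians of 4.16 and 9.60 RPKM. Col11a1, a minor fibrillar collagen best known from cartilage, stayed between 2.81 and 23.98 RPKM.

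The small proteoglycans of connective tissue and collagen VI, a beaded-filament collagen that borders cells, were high and low in much the same libraries. Lum (lumican, a regulator of fibril assembly) was listed at 0 in 15 libraries and reached 204.8 RPKM in replicate 6 of the ventral forebrain at E11.5. It had 5.69 RPKM or more in 11 of 12 dorsal midbrain libraries, at most 1.25 RPKM in the 12 ventral hindbrain libraries, and 0 in 7 of 12 ventral midbrain libraries. Dcn (decorin), another such regulator, reached 38.0 RPKM in replicate 4 of the ventral midbrain at E13.5, against 1.53 and 1.70 RPKM in the other libraries of that group. Ogn (osteoglycin) exceeded 5 RPKM in 2 libraries, replicate 6 of the ventral forebrain at E11.5 (10.9 RPKM) and replicate 4 of the alar plate at E11.5 (11.8 RPKM). Col6a1 and Col6a2 had medians of 5.53 and 7.10 RPKM in the dorsal midbrain, against 0.561 and 1.204 RPKM in the other 48 libraries, and Col6a3 passed 5 RPKM in 1 library of 60.

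**Figure D2:**
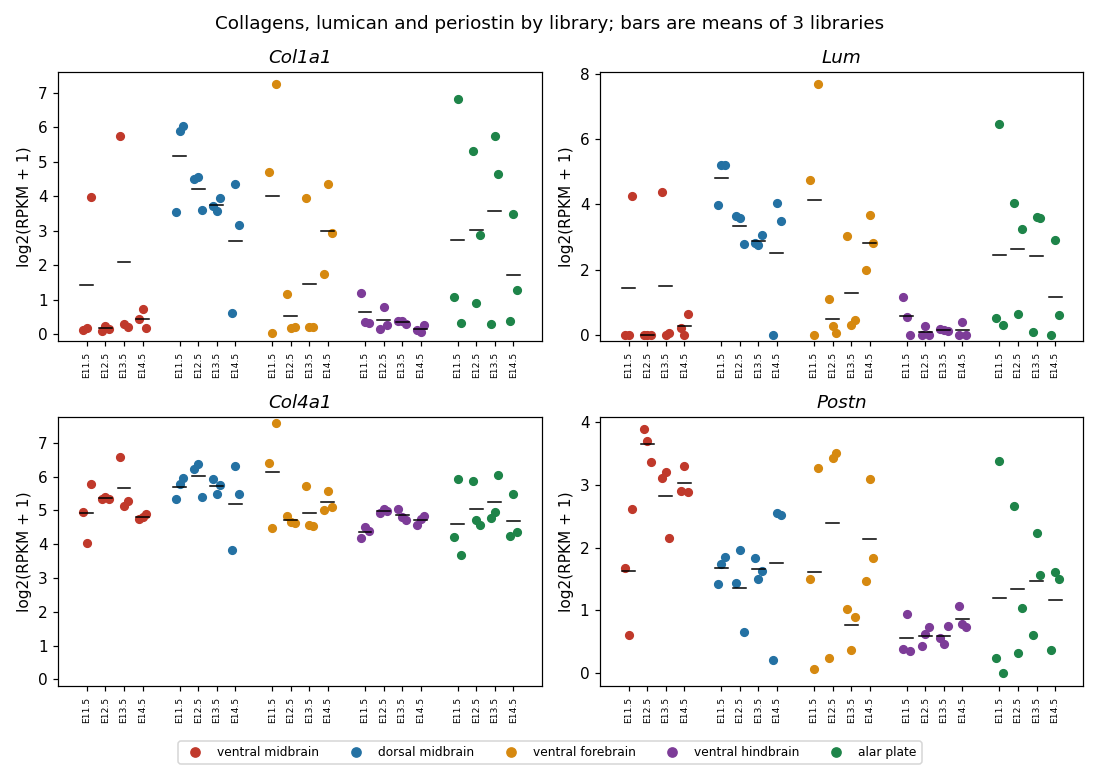
Col1a1, Lum, Col4a1 and Postn as log2(RPKM + 1) in each library, by region (colour) and stage (horizontal axis), with the mean of the 3 libraries of a group as a bar. For Col1a1 and Lum the points of 1 group often lie far apart, Col4a1 is at least 11.8 RPKM in all libraries, and the group means of Postn are highest in the ventral midbrain from E12.5.

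These members were set beside 12 marker genes of meningeal mesenchyme, none of them a member: Foxc1, Foxc2, Foxd1, Twist1, Prrx1, Pdgfra, Tbx18, Aldh1a2, Slc6a13, Osr1, Alx4 and Foxp1. The summed marker level was 17.7 to 58.8 RPKM in the dorsal midbrain, 10.8 to 54.7 RPKM in the ventral midbrain, 10.1 to 206.6 RPKM in the ventral forebrain, 8.36 to 19.8 RPKM in the ventral hindbrain and 8.69 to 101.0 RPKM in the alar plate. Foxp1, which neurons also express, makes up most of the low sums: without it the sums were 4.45 to 46.7, 2.94 to 40.3, 1.89 to 191.0, 2.02 to 5.999 and 0.882 to 92.7 RPKM, in the same order of regions. Single markers were at 0 in part of the libraries, among them Osr1 in 8 of 12 ventral midbrain and 6 of 12 ventral hindbrain libraries, against 1 of 12 in the dorsal midbrain. The library with the highest marker sum in its group was also the highest for Col1a1 in 16 of 20 groups, for Col1a2, Col3a1 and Lum in 15 each, for Col4a2 and Col5a1 in 16 each, and for Dcn, Col6a1 and Col6a2 in 14 each. For the neural matrix genes this number was 6 to 11, and for Agrn it was 6. The fibrillar collagens Col5a2 and Col11a1, with 11 each, reached no more than the highest neural gene. The interstitial glycoproteins had 9 to 13, the turnover genes 9 to 10 and the basement membrane genes 6 to 16, so the groups overlap. These counts use the sum with Foxp1. The sums of 206.6 RPKM in the ventral forebrain, 101.0 RPKM in the alar plate and 54.7 RPKM in the ventral midbrain came from the libraries with 151.5, 112.0 and 53.1 RPKM of Col1a1, in that order. Other lists were counted in the same way, by the groups in which Col1a1 and the summed list had the same highest library. This number was 14 of 20 for macrophages, 12 for endothelium, 11 for mural cells and 10 for erythroid cells. It was 9 for choroid plexus, 7 for epidermis, 6 for muscle and cartilage, 4 for neurons and 2 for radial glia. For the region markers it was 11 for ventral hindbrain, 8 for ventral forebrain, 5 for dorsal midbrain and 3 for ventral midbrain. With 3 libraries per group, unrelated lists also share a highest library in some groups. In the ventral forebrain library with 151.5 RPKM of Col1a1, the erythroid sum was 20830 RPKM, the highest of the 60, against a ventral forebrain median of 792.1 RPKM, and the neuron sum was 743.7 RPKM, the lowest of its region. In the alar plate library with 112.0 RPKM of Col1a1, the erythroid sum was 15580 RPKM, the choroid plexus sum 122.4 RPKM and the epidermis sum 22.6 RPKM, and the neuron sum of 369.3 RPKM was the lowest of the 60. How far these cells account for the spread of the members was not tested. The libraries share their depth and dissection, and the counts are a description.

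**Figure D3:**
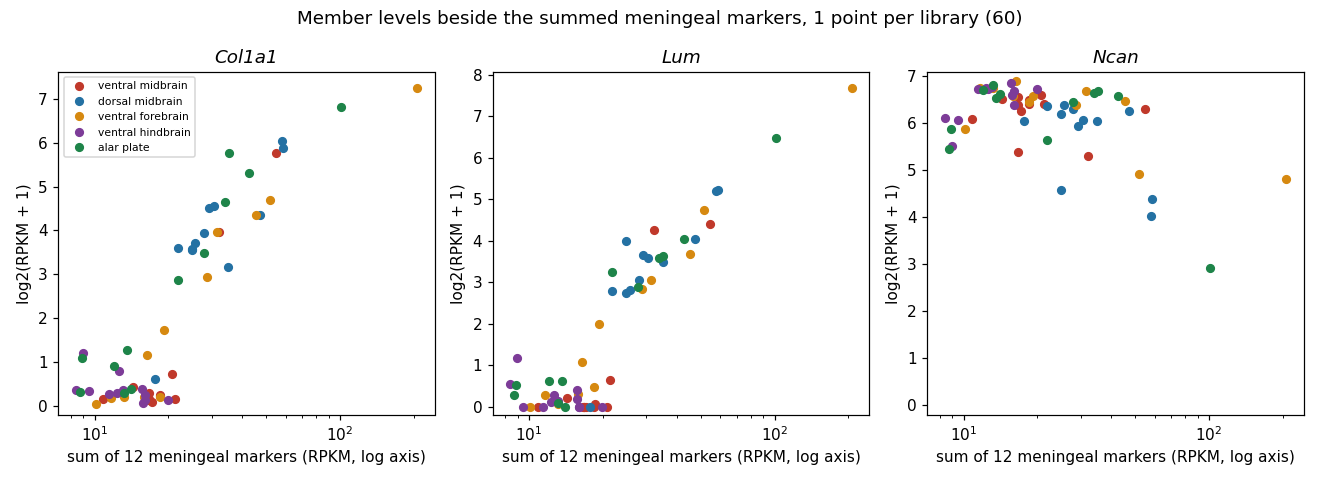
Level of Col1a1, Lum and Ncan as log2(RPKM + 1) against the summed RPKM of 12 meningeal marker genes (log axis), 1 point per library, coloured by region. Col1a1 and Lum are high in the libraries with high marker sums, up to 151.5 and 204.8 RPKM at a sum of 206.6 RPKM, and the ventral hindbrain libraries lie at the low end of both axes.

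Regions were compared within each stage with limma's moderated F test on log2(RPKM + 1), after genes whose mean stayed under 1 RPKM in every group had been set aside, and p-values were adjusted over all remaining genes by Benjamini-Hochberg. A gene was called at an adjusted p below 0.05 and a range of the 5 region means of at least 1 on the log2 scale. At E11.5 none of the 39 members tested was called, beside 0.116% of all genes. That limma fit gave 2 members an unadjusted p below 0.05. Voom, run on the whole reads recovered from the RPKM, called 0 as well. Without the libraries that matched another region better, 18 members were called at E11.5, beside 1674 of 13630 genes (12.3%), but no ventral forebrain or alar plate library was left. The dorsal midbrain libraries had a run name apart from all others left, so dorsal midbrain and run cannot be told apart there. Leaving out libraries by their match to the regions favours regional differences, so counts after this omission are no independent check. The same omission gave 30 members at E12.5 (18.0% of all genes), 10 at E13.5 (17.2%) and 13 at E14.5 (15.7%). At E12.5, 28 of 39 members were called, beside 14.6% of all genes. They comprised 4 of 6 fibrillar collagens, all 3 collagen VI chains, 10 of 13 basement membrane genes, 5 of 7 interstitial glycoproteins tested, 2 of 3 small proteoglycans, 3 of 5 neural matrix genes and 1 of 2 turnover genes. The count was 14 without replicate 1, or without replicate 2, of the dorsal midbrain. At E13.5, 7 of 40 members were called (Bcan, Vtn, Postn, Reln, Col18a1, Timp3 and Tnr), beside 16.8% of all genes, and 11 without replicate 4 of the alar plate. At E14.5, 10 of 40 were called (Bcan, Col3a1, Col1a1, Reln, Postn, Timp3, Tnr, Col18a1, Spp1 and Thbs1), beside 15.7% of all genes. At E13.5 the share of members called was near the background in that fit, but the count was 13 with pseudocount 0.1, beside 22.5% of all genes, and 14 with the meningeal marker sum as a covariate, beside 16.6%. The E14.5 count was 19 without replicate 2 of the dorsal midbrain and 6 without replicate 3 of the ventral midbrain. It was 3 within the 9 libraries of 1 run, where both midbrain regions are absent, beside 4.67% of all genes.

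The largest ranges of region means at E12.5 belonged to Col1a1 (4.06, adjusted p = 0.00392), Col3a1 (3.83, adjusted p = 0.00298), Vtn (3.57, adjusted p = 0.000142), Col1a2 (3.48, adjusted p = 0.00382) and Lum (3.34, adjusted p = 0.00331), all on the log2 scale and by limma. Postn (3.04), Col6a1 (2.38) and Bcan (2.27) came next. Postn lost its call at E12.5 in 9 of the 15 fits without 1 library, and Bcan in 5 of 15, among them each fit without a dorsal midbrain library. At E13.5 and E14.5 Bcan had the widest range of all members called, 3.65 (adjusted p = 1.28e-07) and 3.96 (adjusted p = 6.09e-06). At E14.5 Col3a1 (3.73, adjusted p = 0.0241) and Col1a1 (2.85, adjusted p = 0.0437) followed, both without a call under voom and within 1 run, and Col1a1 lost its call in 11 of the 15 fits without 1 library.

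Averaged over the 4 stages, the dorsal midbrain was higher than the mean of the 4 other regions for 7 of 41 members tested and lower for 1, at an adjusted p below 0.05 and a difference of at least 1 on the log2 scale, beside 2.21% of all genes higher and 2.31% lower (4.51% in either direction). Of these, 6 are the connective tissue genes named above. Col3a1 was 1.85 to 111.0 RPKM in the dorsal midbrain (median 38.1), against 0.955 to 564.5 RPKM in the other 48 libraries (median 2.13), a log2 difference of 2.37 ± 0.59 (SE, adjusted p = 0.000632). Col1a1 differed by 2.36 ± 0.58 (adjusted p = 0.000507), with a median of 13.3 RPKM in the dorsal midbrain, against 0.303 RPKM in the others. Col1a2 differed by 2.11, Lum by 2.04, Col6a1 by 1.33 and Col6a2 by 1.25 (adjusted p of 0.000809 to 0.00110). For all 6 the ranges overlap, since single libraries of other regions are higher than any of the dorsal midbrain. The 7th was Reln, described with the neural genes, and the 1 lower member was Bcan. The median difference of the 41 members was 0.31, against 0.03 over all genes tested. Among the meningeal markers 1 of 12 was called higher in the dorsal midbrain. When the marker sum was entered as a covariate, a setting chosen after seeing the data, 2 members were still called (Reln higher and Bcan lower), beside 3.72% of all genes. Col1a1 then differed by 0.93, Col3a1 by 0.91 and Lum by 0.71. The marker sum itself differed between regions, with medians of 28.58 RPKM in the dorsal midbrain and 12.85 RPKM in the ventral hindbrain. Entering it therefore also takes out regional difference, and what the smaller differences are due to was not tested. Over E12.5 to E14.5 without the libraries that matched another region better, 9 members were higher and 2 lower, beside 6.97% of all genes. Voom on recovered reads called 16 higher and 2 lower, beside 10.9% of all genes. Pseudocount 0.1 gave 13 higher and 2 lower, beside 10.1% of all genes. The share of all genes thus rose as well, from 4.51% in the main fit.

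The ventral hindbrain stood at the other end: 8 of 41 members were lower than the mean of the other regions and 2 were higher, beside 0.572% of all genes lower and 1% higher (1.57% in either direction). Col3a1 was 0.988 to 4.20 RPKM in the ventral hindbrain (median 1.33), against 0.955 to 564.5 RPKM in the other 48 libraries (median 14.52), a log2 difference of -2.35 ± 0.59 (adjusted p = 0.00148). Col1a1 differed by -2.12 ± 0.58 (adjusted p = 0.00312), Lum and Col1a2 by -1.90 each, Col6a1 by -1.19 and Col6a2 by -1.08. The ventral hindbrain values are all low, but low libraries of the other regions overlap them. The medians of the ventral midbrain were close to those of the ventral hindbrain, though its highest libraries were far above. For Col1a1 the medians were 0.174 RPKM in the ventral midbrain and 0.2495 RPKM in the ventral hindbrain. For Col1a2 they were 1.435 and 1.265 RPKM, and for Col3a1 1.99 and 1.33 RPKM, in the same order. Postn differed by -1.20 ± 0.29 (adjusted p = 0.000865), with 0.281 to 1.09 RPKM in the ventral hindbrain, against 0 to 13.8 RPKM elsewhere. Col18a1, the basement membrane collagen that yields endostatin, differed by -1.05 ± 0.19 (adjusted p = 2.83e-05), with a median of 4.59 RPKM in the ventral hindbrain, against 12.8 RPKM elsewhere. With the marker sum as a covariate 0 members were called lower by limma and 3 higher (Bcan, Vtn and Timp3), beside 1.14% of all genes. Col1a1 then differed by -0.32 and Col3a1 by -0.52, with the same limit as in the dorsal midbrain. Voom on recovered reads called 4 lower and 2 higher, beside 5% of all genes, and Col1a1, Col1a2, Lum, Col6a1 and Col6a2 were not among them. Without the libraries that matched another region better the count over E12.5 to E14.5 was 5 lower and 3 higher, beside 1.99% of all genes. The median difference of the members was -0.36, against -0.02 over all genes.

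In the ventral midbrain 1 of 41 members was higher, Postn, beside 1.31% of all genes, and 0 were lower, beside 0.408% (1.72% in either direction). At an unadjusted p below 0.05, limma gave 8 members with a positive and 4 with a negative difference. Voom called 1 higher and 0 lower, beside 4.16% of all genes. Left out in turn, replicate 6 of E11.5 or replicate 4 of E13.5, the 2 ventral midbrain libraries with collagen, brought the count of members to 5, of which 4 were lower. It was 3 without replicate 4 of the ventral forebrain at E11.5 and 2 without replicate 4 of the alar plate at E13.5. In the ventral forebrain 0 members were higher and 0 lower, beside 0.442% and 0.334% of all genes (0.776% in either direction), with 4 members at an unadjusted p below 0.05 in limma and 0 calls by voom. In the alar plate 0 were higher and 0 lower, beside 0.265% and 0.354% of all genes (0.619% in either direction), with 11 members at an unadjusted p below 0.05 in limma and 0 calls by voom.

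**Figure D4:**
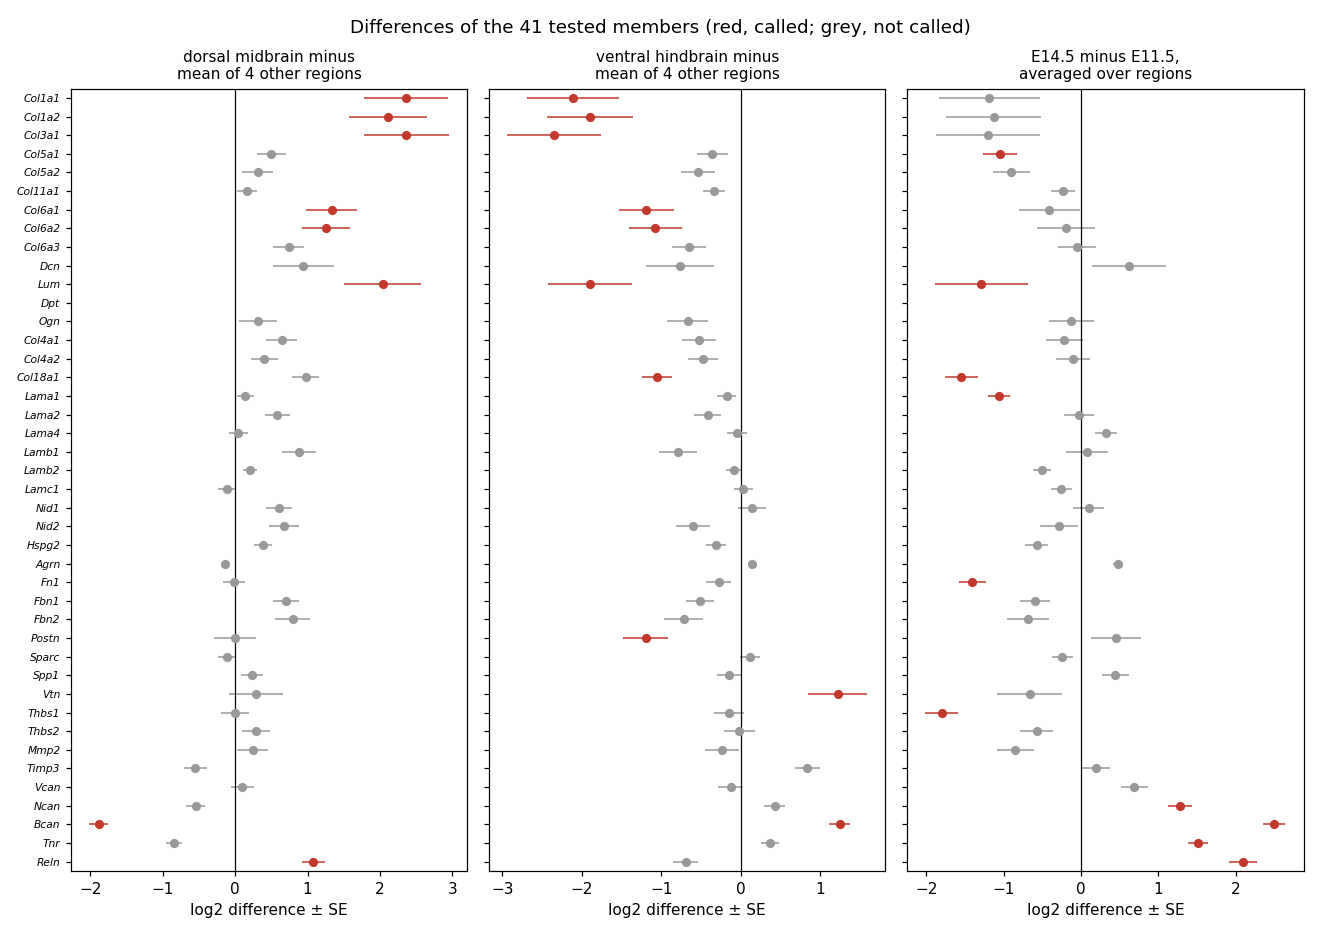
Log2 difference ± SE of each of the 41 tested members for the dorsal midbrain minus the 4 other regions, the ventral hindbrain minus the 4 other regions, and E14.5 minus E11.5. Red points were called (8, 10 and 10 members). Col1a1, Col1a2, Col3a1 and Lum lie to the right in the dorsal midbrain panel and to the left in the ventral hindbrain panel, and the neural genes Bcan, Tnr, Ncan and Reln to the right in the stage panel.

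The basement membrane genes were present in every region. Col4a1 and Col4a2, the network-forming collagen, had at least 11.8 and 8.92 RPKM in each of the 60 libraries. Col4a1 had 74.7, 82.5 and 41.5 RPKM in the dorsal midbrain at E12.5, 29.2, 31.9 and 30.4 RPKM in the ventral hindbrain and 39.7, 41.2 and 39.5 RPKM in the ventral midbrain. The dorsal midbrain values exceed all of the ventral hindbrain values at that stage. Lamb1, Lamb2 and Lamc1, laminin beta and gamma chains, had medians of 3.86, 9.53 and 10.6 RPKM, Lama1 and Lama4, alpha chains, 5.29 and 4.22 RPKM, and Lama2, the alpha chain of muscle and mural basement membranes, 0.439 RPKM. Nid1 and Nid2, the nidogens that join laminin to collagen IV, had medians of 13.8 and 6.04 RPKM. Nid1 reached 41.8 RPKM in replicate 2 of the ventral hindbrain at E14.5, against 17.7 and 16.7 RPKM in the other libraries of that group. Hspg2 (perlecan) had a median of 3.62 RPKM. Agrn differed by stage more than by region: its 15 values were 50.4 to 105.9 RPKM at E11.5, 75.5 to 167.1 RPKM at E12.5, 128.0 to 161.4 RPKM at E13.5 and 87.8 to 125.0 RPKM at E14.5. Of the 13 basement membrane genes, 1 was called in a region average, Col18a1 in the ventral hindbrain.

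Among the interstitial glycoproteins Postn and Vtn had regional patterns of their own, as did the turnover gene Timp3. Postn (periostin, a collagen-binding protein of connective tissue) had 13.8, 11.9 and 9.31 RPKM in the ventral midbrain at E12.5, 7.64, 8.20 and 3.46 RPKM at E13.5, and 6.44, 8.76 and 6.36 RPKM at E14.5. At E13.5 the highest library of any other region had 3.69 RPKM, between the lowest and the next ventral midbrain value, so the ranges just overlap. The log2 difference of the ventral midbrain from the mean of the other regions was 1.46 ± 0.29 (SE, adjusted p = 9.135e-05) by limma and 1.57 with the marker sum as covariate. At E12.5, 2 ventral forebrain libraries, with 9.73 and 10.4 RPKM, lay among the ventral midbrain values, and the other had 0.187 RPKM.

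Vtn (vitronectin, an adhesive glycoprotein) had 86.2, 82.3 and 93.3 RPKM in the ventral hindbrain at E12.5, 55.8, 59.5 and 80.0 RPKM at E13.5, and 7.29, 56.8 and 51.0 RPKM at E14.5. The highest value in any other region was 33.8 RPKM at E12.5. At E13.5 it was 73.6 RPKM, in the ventral midbrain library with 53.1 RPKM of Col1a1. At E11.5 the ventral hindbrain itself ranged from 1.36 to 97.2 RPKM. The log2 difference of the ventral hindbrain was 1.22 ± 0.37 (adjusted p = 0.00754), and 0.94 without replicate 6 of E11.5. Timp3, an inhibitor of matrix metalloproteinases, had 2.27 to 23.8 RPKM in the ventral hindbrain (median 13.4), against 1.75 to 32.0 RPKM elsewhere (median 6.83), a difference of 0.84 ± 0.16 (adjusted p = 6.01e-05), under the size needed for a call. Its alar plate and dorsal midbrain values never passed 7.69 RPKM. Mmp2, a gelatinase, had a median of 4.06 RPKM and reached 49.9 RPKM in replicate 6 of the ventral forebrain at E11.5. Fbn1 and Fbn2, which encode microfibril proteins, had medians of 1.69 and 2.12 RPKM, and Thbs2 and Spp1, a thrombospondin and osteopontin, 0.478 and 0.579 RPKM.

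The neural matrix genes divided the regions in another way. Bcan (brevican, a lectican of maturing neural tissue; chromosome 3, 87987531 to 88000230, minus strand) was near 0 in all 15 libraries at E11.5, with at most 0.266 RPKM. In the dorsal midbrain it stayed there: the 12 values were 0 to 0.266 RPKM, of which 5 were 0. In the ventral hindbrain it had 5.18, 4.50 and 3.11 RPKM at E12.5, 16.0, 8.49 and 13.8 RPKM at E13.5, and 12.1, 16.9 and 17.9 RPKM at E14.5. In the ventral midbrain it had 0.679, 1.36 and 1.41 RPKM at E12.5, 4.63, 4.51 and 5.54 RPKM at E13.5, and 13.6, 10.5 and 5.68 RPKM at E14.5. From E13.5 no dorsal midbrain library overlapped any library of another region. The log2 difference of the dorsal midbrain was -1.89 ± 0.13 (adjusted p = 2.47e-15) and that of the ventral hindbrain 1.24 ± 0.13 (adjusted p = 1.015e-09), by limma. Of 8 radial glia markers, 1 was called higher and 2 lower in the dorsal midbrain, and 2 higher in the ventral hindbrain, and their part in the Bcan difference was not tested.

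Reln (reelin, a secreted guide of neuronal migration) had 21.1, 26.7 and 25.6 RPKM in the dorsal midbrain at E12.5, 34.4, 29.6 and 27.1 RPKM at E13.5, and 28.4, 39.1 and 26.5 RPKM at E14.5. In the ventral hindbrain it had at most 16.2 RPKM and in the ventral midbrain at most 12.46 RPKM. At E12.5 the alar plate had 21.1, 28.5 and 7.03 RPKM, of which 1 value is above all of the dorsal midbrain, and the ventral forebrain 19.9, 22.1 and 16.1 RPKM, so these ranges overlap that of the dorsal midbrain. At E14.5 the alar plate, with 26.9, 28.7 and 29.9 RPKM, lay within the range of the dorsal midbrain. The log2 difference of the dorsal midbrain was 1.08 ± 0.16 (adjusted p = 1.64e-07). Tnr (tenascin-R), made by later glia and some neurons, was at most 0.844 RPKM in the dorsal midbrain and reached 4.54 RPKM in the ventral midbrain and 5.57 RPKM in the ventral hindbrain. Vcan (versican) had 4.89 to 42.1 RPKM, with a median of 16.9 RPKM, and no region average of it was called.

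Between E11.5 and E14.5 4 of the 5 neural members were called higher. Vcan, the other neural member, was also higher in each of the 5 regions, by 0.163 to 1.228 on the log2 scale, but was not called. Members of the interstitial, fibrillar, proteoglycan and basement membrane groups were called lower. Averaged over regions, 4 of 41 members were higher at E14.5 and 6 were lower, beside 8.15% of all genes higher and 6.05% lower (14.2% in either direction). The share of members called higher was near that background. All 4 called higher are neural matrix genes: Bcan by 2.50 ± 0.15, Reln by 2.10 ± 0.18, Tnr by 1.52 ± 0.13 and Ncan by 1.28 ± 0.15 on the log2 scale (adjusted p of 4.996e-10 or less by limma). Ncan had 64.7 to 100.8 RPKM at E14.5 (median 87.3), against 6.53 to 68.0 RPKM at E11.5 (median 40.8), and these ranges overlap only between 64.7 and 68.0 RPKM.

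The members called lower were Thbs1 (thrombospondin 1) by 1.80 ± 0.21, Col18a1 by 1.55 ± 0.21, Fn1 (fibronectin) by 1.40 ± 0.18, Lum by 1.29 ± 0.60, Lama1 by 1.06 ± 0.14 and Col5a1 by 1.04 ± 0.22. Fn1 had 4.97 to 25.8 RPKM at E14.5 (median 11.2), against 20.4 to 82.2 RPKM at E11.5 (median 29.0). Thbs1 had 0.886 to 4.50 RPKM at E14.5 (median 2.42), against 2.405 to 55.0 RPKM at E11.5 (median 9.87). Lama1 had 1.36 to 6.90 RPKM at E14.5, against 5.61 to 21.6 RPKM at E11.5, and its log2 difference lay between -1.03 and -1.11 in the 5 regions. Lum had an adjusted p of 0.0492 by limma and lost its call in 42 of the 60 fits with 1 library left out. Col5a1 and Lama1 passed below the size of 1 when single libraries were left out (to 0.91 and 0.98). Over the same interval 4 of 8 neuron markers rose, 4 of 8 radial glia markers fell and 1 rose, and 6 of 7 erythroid markers fell. Of 12 meningeal markers 1 fell, Twist1 by 1.005, of 8 mural cell markers tested Rgs5 rose by 2.38 and Tagln fell by 1.23, and of 12 endothelial markers 1 rose, Cldn5 by 1.28. The part of these cells in the changes was not tested. A term for run was added to a fit of additive region and stage effects, a setting chosen after seeing the data. It rests on the E11.5 dorsal midbrain libraries and assumes that all regions change alike, which Bcan and Reln did not. With that term 4 members were higher and 3 lower, beside 11.6% of all genes, and 4 of the 10 named were among them: Reln by 3.17, Ncan by 1.79, Tnr by 1.015 and Thbs1 by -2.75. Vcan (1.48) was also called higher, and Spp1 (-1.37) and Mmp2 (-1.49) lower. Without the run term Spp1 differed by 0.446 and Mmp2 by -0.853. The change of Spp1 within regions was 0.248 to 1.025 in 4 regions and -0.355 in the dorsal midbrain. With the run term Bcan differed by 0.615 (adjusted p = 0.210), Col18a1 by -0.80 (adjusted p = 0.150), Fn1 by -0.93 (adjusted p = 0.0604) and Lama1 by -0.54 (adjusted p = 0.137). Lum (-1.59) and Col5a1 (-1.14) also lost their calls. Without the run term the additive fit called the 10 members named above.

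Between E12.5 and E13.5, 1 member was higher at E13.5, Bcan, beside 0.0545% of all genes, and 0 were lower. Bcan differed by 1.08 ± 0.15 (adjusted p = 1.29e-05 by limma), and by 0.83 without the libraries that matched another region better. By limma, 1 member had a negative difference at an unadjusted p below 0.05, and voom called 1 higher and 0 lower.

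**Figure D5:**
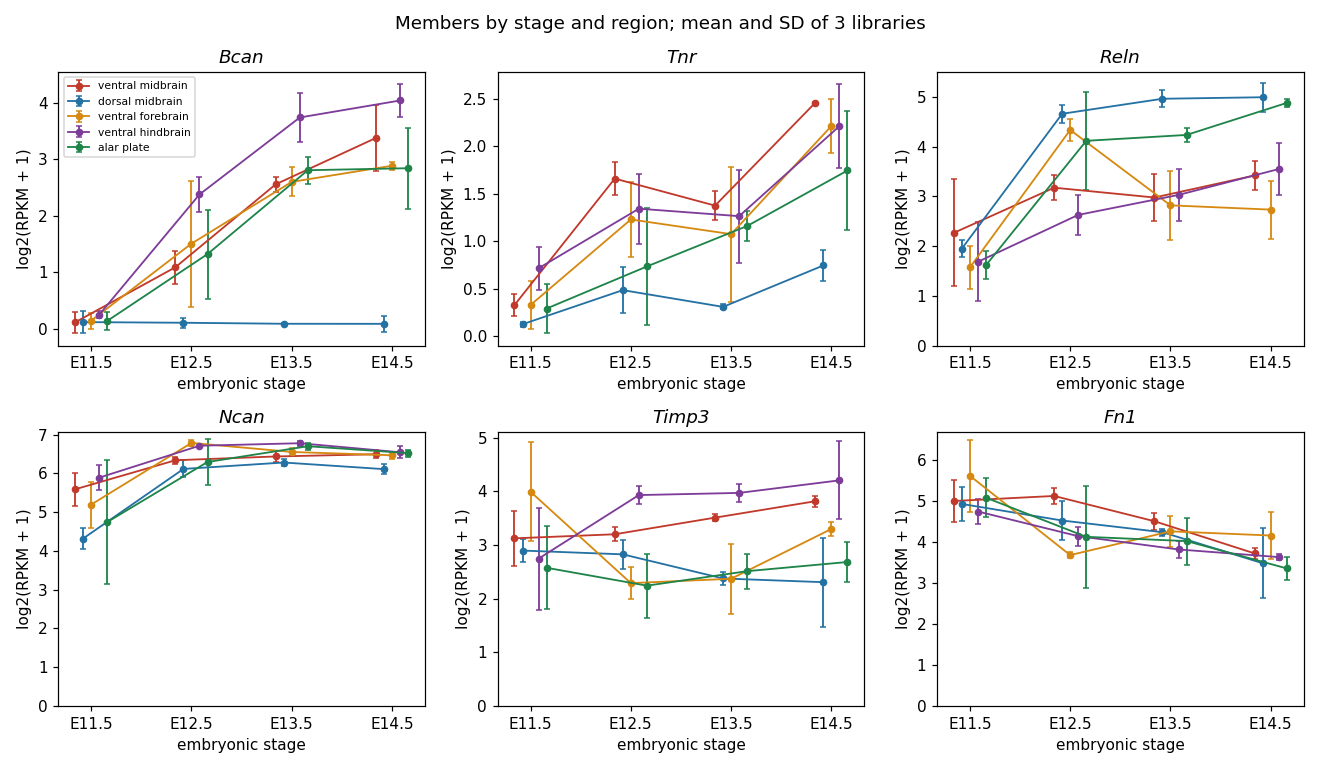
Bcan, Tnr, Reln, Ncan, Timp3 and Fn1 as log2(RPKM + 1) by stage, mean and SD of 3 libraries, 1 line per region. Bcan is higher at E14.5 than at E11.5 in 4 regions and stays at 0 to 0.266 RPKM in the dorsal midbrain, whereas Fn1 is lower at E14.5 than at E11.5 in all 5 regions.

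The change from E11.5 to E14.5 differed between regions for 4 of 41 members, beside 10.8% of all genes, a share near the background, in limma's F test of the interaction. For Bcan the change was 3.80 in the ventral hindbrain, 3.27 in the ventral midbrain, 2.74 in the ventral forebrain, 2.71 in the alar plate and -0.03 in the dorsal midbrain (adjusted p = 1.006e-06). For Reln it was 3.27 in the alar plate and 3.04 in the dorsal midbrain, and 1.15 to 1.87 in the 3 ventral regions (adjusted p = 0.00610). For Timp3 it was 1.46 in the ventral hindbrain and -0.69 in the ventral forebrain (adjusted p = 0.0174). For Tnr it was 2.13 in the ventral midbrain and 0.62 in the dorsal midbrain (adjusted p = 0.0368). Voom called 0 members, and 492 genes in all. The number of members was 10 without replicate 4 and 7 without replicate 6 of the ventral forebrain at E11.5.

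The machinery that makes and reads this matrix was followed through 21 genes of collagen biosynthesis and cross-linking and 24 genes of matrix receptors. From the earliest stage to the latest the F test called 0, 9, 6 and 5 biosynthesis genes of 20, 20, 20 and 21 tested, and 0, 7, 7 and 8 receptor genes of 22, 20, 19 and 20 tested. The background over all genes was 0.116%, 14.6%, 16.8% and 15.7%. In the region averages P4ha3 was the 1 biosynthesis gene called. P4ha3, a catalytic subunit of collagen prolyl hydroxylase, was higher in the ventral midbrain (by 1.91 ± 0.25, adjusted p = 6.62e-08) and ventral hindbrain (by 1.31 ± 0.25), and lower in the dorsal midbrain (-2.06 ± 0.25) and alar plate (-1.16 ± 0.25). Of the receptors, Itgb5, an integrin beta chain that binds vitronectin, was higher in the ventral midbrain (1.10 ± 0.18), and Sdc3, a neural syndecan, was lower in the dorsal midbrain (-1.02 ± 0.10). From E11.5 to E14.5, 2 of 21 biosynthesis genes tested fell, beside 6.05% of all genes (Loxl2, a cross-linking oxidase, by 2.11, and Serpinh1, the collagen chaperone, by 1.27). Over the same interval 3 of 22 receptor genes tested fell, among them Sdc1 by 1.73 and the fibronectin receptor chain Itga5 by 1.15, and 1 rose, Sdc3, by 1.48, beside 8.15% of all genes that rose.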

How the data were processed

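RNA of TH-GFP mouse brain pieces was purified (RNeasy) and sequenced from TruSeq libraries, per the labels' protocols. The authors deposited RPKM per gene, with transcript lengths: value times length sums to 1000000 in each library. Reads were mapped with Bowtie to mm10, per the submitters' processing notes. How reads were counted, on which annotation and strand, is not given in the sources used here. Dividing by the step of 1 read gave whole reads for 100.0% of values within 0.01.

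From these RPKM, limma 3.58.1 (R 4.3.3) was fitted to log2(RPKM + 1) with a mean-variance trend, 1 fit per stage for the regions and 1 fit of all 20 group means for the averages, leaving out genes under a mean of 1 RPKM in every group. Fold changes are on that scale, which understates those of low genes. Calls needed a Benjamini-Hochberg adjusted p below 0.05 over all genes tested and at least 1 on the log2 scale. Descriptions used Python 3.11.15 with pandas 2.3.3 and numpy 2.4.6. The fits were tested on simulated data. The least different replicate pair (ventral midbrain E14.5 replicates 3 and 4) had a chi-square per feature of 1.12, close to counting error alone. This value cannot show that the 2 libraries come from different samples. All libraries were nevertheless kept as separate. The most different pairs were replicate 3 of the alar plate at E12.5 with replicates 1 (101.2) and 2 (98.8). The next pair, ventral forebrain E11.5 replicates 4 and 6, had 36.35. With 0 reads of a gene in a library, up to 3 reads remain possible, and this covers counting error only. In each direction of a comparison at most 8 called members, by size, were named with statistics. The alternatives were pseudocount 0.1, no filter, voom, median-of-ratios scaling, a replicate block, 1 library left out, libraries matching another region left out, restriction to 1 run, an additive term for run, and the meningeal marker sum as covariate. The members and lists were chosen with earlier results of these data known.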

Additional observations from a re-analysis of the deposited data

Results flagged for a closer look

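For 4 of the 41 members tested the change between E11.5 and E14.5 differed between regions in limma's F test of the interaction. Beside them 10.8% of all genes were called, so the share of members was near the background. Each of the 4 is given here with the spread of its 5 regional changes (largest minus smallest, log2 scale). Bcan had the widest spread, 3.826, between 3.80 in the ventral hindbrain and -0.03 in the dorsal midbrain. Timp3, the metalloproteinase inhibitor, had a spread of 2.155, with a rise of 1.46 in the ventral hindbrain and a change of -0.69 in the ventral forebrain. Its call was lost without replicate 2 of E11.5 or replicate 3 of E14.5 of the ventral hindbrain. Reln had a spread of 2.111, with larger changes in the alar plate and dorsal midbrain than in the 3 ventral regions. Tnr had a spread of 1.509, between 2.13 in the ventral midbrain and 0.62 in the dorsal midbrain, and lost its call in 10 of the 60 fits with 1 library left out. None of the 4 passed under voom. All ventral forebrain and alar plate libraries at E11.5 matched another region better, so these 4 spreads could not be fitted without such libraries, and the E11.5 dorsal midbrain libraries had a run name apart from the rest of their stage. The part of these in the 4 results was not tested.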

How the results depend on the processing

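The counts of members called (0, 28, 7 and 10 at E11.5 to E14.5; ventral midbrain 1, dorsal midbrain 8, ventral forebrain 0, ventral hindbrain 10, alar plate 0; E14.5 against E11.5 10; E13.5 against E12.5 1; interaction 4) moved by over 1.5 times in the settings that follow. The shares of all genes in the main fits were 0.116%, 14.6%, 16.8% and 15.7% at E11.5 to E14.5. By region, in the same order, they were 1.72%, 4.51%, 0.776%, 1.57% and 0.619%. They were 14.2% for E14.5 against E11.5, 0.0545% for E13.5 against E12.5 and 10.8% for the interaction. In brackets is the share of all genes called in a setting. With pseudocount 0.1 the counts were 13 at E13.5 (22.5%), 3 in the ventral midbrain (4.26%), of which 1 was higher, and 15 in the dorsal midbrain (10.1%). Under voom they were 18 in the dorsal midbrain (10.9%), 6 in the ventral hindbrain (5%) and 0 for the interaction (3.35%). With the meningeal marker sum as covariate, chosen after seeing the data, they were 14 at E12.5 (7.54%) and 14 at E13.5 (16.6%). In that setting they were 2 in the ventral midbrain (1.73%), 2 in the dorsal midbrain (3.72%), 3 in the ventral hindbrain (1.14%) and 8 for the interaction (12.1%). Without the libraries that matched another region better they were 18 at E11.5 (12.3%), where dorsal midbrain and run cannot be told apart. They were then 0 for E13.5 against E12.5 (0.0273%). Within 1 run the E14.5 count was 3 (4.67%). Over E12.5 and E13.5 only, the count was 1 in the ventral forebrain (0.95%). Over E12.5 to E14.5 without the libraries that matched another region better, it was 2 in the alar plate (1.23%). For the fits with 1 library left out no share of all genes is given. In them the E12.5 count was 14 to 31, the E13.5 count 6 to 11 and the E14.5 count 6 to 19. The others were 1 to 5 in the ventral midbrain, 0 to 1 in the alar plate, 7 to 15 for E14.5 against E11.5 (15 without replicate 4 of the ventral forebrain at E11.5), 0 to 1 for E13.5 against E12.5 and 3 to 10 for the interaction. The alar plate count was 1 without replicate 2 of E11.5 of the alar plate or of the ventral hindbrain. The E13.5 against E12.5 count was 0 without replicate 1 of the ventral forebrain or replicate 3 of the alar plate at E12.5. Additive region, stage and run gave 7 for E14.5 against E11.5 (11.6%). None of the members called in the main fits and named with statistics changed sign. Spp1, not called for E14.5 against E11.5 in the main fit, differed by 0.446 in the additive fit without run. With the run term it differed by -1.37 and was called lower. The cause of these shifts was not tested. Same-numbered libraries of a stage correlated above 0.1 in 10, 18, 21 and 12 of 30 pairs, from E11.5 to E14.5. Their mean correlations were -0.0282, 0.139, 0.171 and 0.0921, against 0.0135, -0.0703, -0.0856 and -0.0460 for other numbers. Since not every pair passed 0.1 and the labels name no shared litter or batch, the libraries were taken as unpaired. Whether same-numbered libraries share a litter or batch is not known. With the replicate number as a block the counts were 25 at E12.5, 13 at E14.5 and 9 for E14.5 against E11.5, and the other counts did not move. Depth limits low genes most at E11.5 and E14.5, and a 0 there allows up to 3 reads.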
